A study of Mus musculus with 7 samples.

Results

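The nuclear-encoded subunits of the oxidative phosphorylation machinery were examined in messenger RNA from isolated mouse hepatocytes, the liver cells that carry out most of its metabolism. They were chosen by gene symbol: Nduf genes other than the Ndufaf assembly factors for complex I, Sdha to Sdhd for complex II, Uqcr genes for complex III, Cox4 to Cox8 genes for complex IV and Atp5 genes for complex V, without symbols ending in -ps. The rule took 79 of the 12151 gene symbols listed, 38 in complex I, 4 in complex II, 8 in complex III, 12 in complex IV and 17 in complex V. The 4 libraries labelled ALAS1/2-KO carry a tamoxifen label, and the series describes a Cre-inducible deletion of exons 4 and 5 of Alas1 together with a GalNAc-coupled small interfering RNA against Alas2. The 3 wild-type (WT) libraries carry the treatment label "non". Genotype, tamoxifen and interfering RNA therefore cannot be told apart. The Cre driver, the strain, the age of the mice and the number of animals are not given in the labels, so replicates may differ for technical reasons alone, and the p-values reflect no more than the variation among them.

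Complexes I to IV pass electrons from NADH and succinate to oxygen. Complexes I, III and IV also pump protons across the inner mitochondrial membrane. Complex V, the ATP synthase, uses the proton gradient to make ATP. Complexes I, III, IV and V join subunits encoded in the nucleus to others encoded by mitochondrial DNA, while complex II is encoded in the nucleus alone. ALAS1 and ALAS2 catalyse the entry step of heme synthesis. Heme is a cofactor of complexes II, III and IV and of cytochrome c, and complexes I, II and III also carry iron-sulfur clusters. Hepatocytes draw on this machinery for urea synthesis, gluconeogenesis and fatty acid oxidation.

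Values are CPM, read counts relative to library size as scaled by the authors. Reads in listed genes ran from 27933939 to 30195635 in ALAS1/2-KO and from 22916097 to 34048680 in WT, and 1 read was worth 0.0293 to 0.0522 CPM. Alas2 had 0.333, 0.80, 0.428 and 0.198 CPM in ALAS1/2-KO, against 16.9, 10.3 and 6.65 CPM in WT, and it fell by 4.51 ± 0.457 on the log2 scale (SE; limma, adjusted p = 0.0027). Alas1 had 287, 332, 307 and 361 CPM in ALAS1/2-KO, against 280, 265 and 83.5 CPM in WT, and did not pass the test (adjusted p = 0.277). Its count covers exons outside the deleted part as well, so it does not check the deletion. The 4 listed red cell markers also had negative log2 fold changes (median -2.28). Among them 1 was called lower, beside 2.19% of all genes tested, and their part in the fall of Alas2 was not tested. All 10 hepatocyte markers examined were listed. Of these, 7 had a positive and 3 a negative log2 fold change, and 6 had an unadjusted p under 0.05, beside 23.7% of all genes tested. Among the 10, 1 was called, Alb, which fell by 0.87 (limma adjusted p = 0.0061), beside 2.19% of all genes called lower. Of 44 markers of other liver and blood cells, 35 were listed, 34 of these had a negative log2 fold change (median -1.08) and 3 were called lower, beside 2.19% of all genes tested. Their summed level ran from 325 to 1843 CPM in ALAS1/2-KO and from 1294 to 1765 CPM in WT. ALAS1/2-KO replicate 1 was the lowest of its group for each macrophage, endothelial and stellate marker. Summed macrophage markers ran from 179 to 1151 CPM in ALAS1/2-KO and from 657 to 949 CPM in WT. Summed stellate markers ran from 44.1 to 207 CPM in ALAS1/2-KO and from 186 to 332 CPM in WT. The part of these other cells in the results below was not tested. In bulk RNA, fewer cells of a type and less RNA per cell cannot be told apart.

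The 79 subunits showed no called difference between ALAS1/2-KO and WT hepatocytes. A gene counted as called at a limma adjusted p under 0.05 over all 12105 genes tested. By that rule 617 genes (5.1%) were called, 352 higher (2.91%) and 265 lower (2.19%), and 0 of the 79 subunits were among them, although all 79 passed the filter on low values. The same count was 0 with limma voom on the recovered reads. At an unadjusted p under 0.05 there were 4 subunits, against 23.7% of all genes tested. The 2 groups did not overlap for 2 subunits, Uqcrc2 and Ndufs1, against 22.7% of all genes. The smallest adjusted p of any subunit was 0.122.

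The fold changes lay in a narrow band around 0. The log2 fold change was above 0 for 41 subunits and below 0 for 38, with a median of 0.01 beside -0.02 for all genes tested. It ran from -0.28 for Atp5e to 0.36 for Uqcrc2. Its standard deviation across the subunits was 0.149, beside 0.534 across all genes, and the median standard error was 0.128, beside 0.164. All genes tested include those that only just reach 1 CPM in 3 libraries, and they were not matched to the subunits in level. With the deposited scaling, the 95% interval of the fold change stayed within 2-fold either way for each of the 79 subunits. The same held for 74.9% of all genes. For 69 of the 79 the interval stayed within 1.5-fold, against 45.6% of all genes. The lowest lower bound was -0.67 and the highest upper bound 0.67 on the log2 scale.

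**Figure D1:**
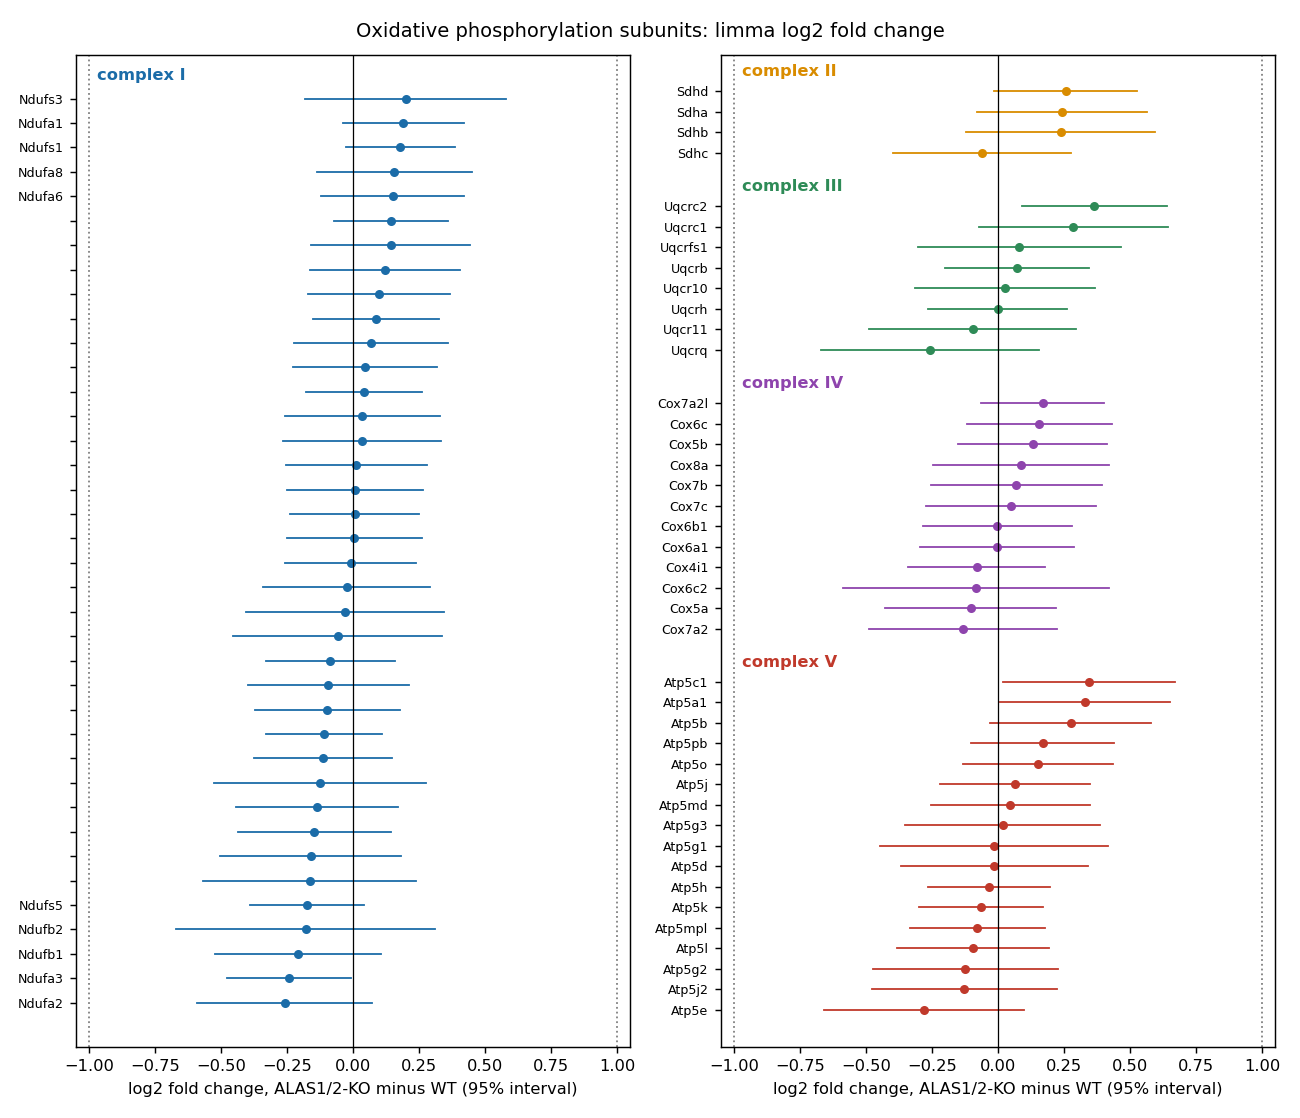
Log2 fold change, ALAS1/2-KO minus WT, of each of the 79 subunits, grouped by complex, with its 95% interval from limma; in complex I the 5 highest and 5 lowest are labelled, and positive values are higher in ALAS1/2-KO. The points spread from -0.28 (Atp5e) to 0.36 (Uqcrc2), and no subunit was called.

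These small differences depend on how libraries are scaled. The library sizes behind the deposited values were 1.069 to 1.184 times the listed reads in ALAS1/2-KO and 0.801 to 1.003 times in WT. With CPM rescaled to the listed reads, the median log2 fold change of all genes moved by 0.33 to 0.32, and that of the subunits moved to 0.34. All 79 then had a positive value, 24 were called higher and 0 lower, while 20.9% of all genes tested were called higher. The largest log2 fold changes of subunits were then 0.70 ± 0.159 (SE) for Uqcrc2 and 0.68 ± 0.165 for Atp5c1. The interval bounds given above belong to the deposited scaling and do not carry over to this one. Relative to the median of all genes the subunits lay 0.02 higher under either scaling. Higher calls were 57.1% of all calls with the deposited scaling, 92.6% when rescaled to listed reads, and 42.3% when mitochondrial genes and the 20 most abundant genes were kept out of the scaling. Mitochondrial transcripts, which weigh on such scaling, took 16.8%, 25.3%, 27.3% and 25.8% of listed reads in ALAS1/2-KO and 38.4%, 43.2% and 31.9% in WT.

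In complex I, which oxidises NADH, the 38 subunits divided evenly, with 19 log2 fold changes above and 19 below 0 and a median of -0.00. The summed nuclear level was 1708 ± 113 CPM in ALAS1/2-KO (SD, n = 4) and 1708 ± 195 CPM in WT (n = 3). The 7 nuclear core subunits, most of which carry flavin or iron-sulfur clusters or line the quinone site, had a median log2 fold change of 0.04, with 5 of 7 above 0. The 31 supernumerary subunits, which surround the core, had a median of -0.03, with 14 of 31 above 0.

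Ndufs1, the largest core subunit and carrier of iron-sulfur clusters (ENSMUSG00000025968.16, chromosome 1, 63143596 to 63176833), had 67.0, 63.3, 58.3 and 59.0 CPM in ALAS1/2-KO, against 52.7, 55.0 and 56.1 CPM in WT. Every ALAS1/2-KO library lay above every WT library, but the log2 fold change of 0.18 ± 0.09 (SE) did not pass (limma adjusted p = 0.269). Ndufa3, a small supernumerary subunit with a membrane helix (ENSMUSG00000035674.13, chromosome 7, 3617373 to 3620327), had 35.5, 41.2, 36.4 and 36.4 CPM in ALAS1/2-KO, against 44.7, 48.5 and 39.7 CPM in WT. The groups overlapped in ALAS1/2-KO replicate 2 alone, and the log2 fold change was -0.24 ± 0.103 (limma adjusted p = 0.201). Both genes have exons that overlap another gene, and no source used here states whether strand was counted, so their reads may include those of a neighbour. The same holds for 30 of the 79 subunits.

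Ndufa2, another small accessory subunit, averaged 26.4 ± 2.09 CPM in ALAS1/2-KO and 31.9 ± 6.30 CPM in WT, a log2 fold change of -0.26 (limma adjusted p = 0.317). In the other direction, Ndufs3, a core subunit of the peripheral arm, averaged 47.5 ± 4.41 CPM in ALAS1/2-KO and 42.1 ± 9.91 CPM in WT, a log2 fold change of 0.20 (limma adjusted p = 0.504). Ndufa1, an accessory subunit encoded on chromosome X, had 49.5, 46.4, 40.0 and 44.6 CPM in ALAS1/2-KO, against 37.6, 41.6 and 39.2 CPM in WT, a log2 fold change of 0.19 (limma adjusted p = 0.289). None of these differences held up against the spread between libraries. Of the other core subunits, log2 fold changes were 0.07 for Ndufv2, 0.03 for Ndufv1, -0.01 for Ndufs8 and -0.15 for Ndufs7.

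The symbol Ndufa12-ps, left out by the rule, averaged 17.47 CPM in ALAS1/2-KO and 16.5 CPM in WT, and Ndufa12 itself averaged 17.3 CPM in ALAS1/2-KO and 17.1 CPM in WT. A gene and a near-identical copy can divide reads between them, so the level of Ndufa12 is uncertain. The other 3 symbols left out (Atp5k-ps2, Atp5pb-ps and Cox5b-ps) averaged 2.24 to 5.41 CPM in ALAS1/2-KO and 2.02 to 4.97 CPM in WT, and none of the 4 was called.

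Complex II, succinate dehydrogenase, had the highest median of the 5 complexes, at 0.24, with 3 of its 4 subunits above 0 and none called. Its summed level was 509 ± 66.2 CPM in ALAS1/2-KO and 441 ± 45.3 CPM in WT. Sdhd, which helps hold the heme in the membrane (ENSMUSG00000000171.5, chromosome 9, 50596357 to 50603812), had 123, 142, 123 and 109 CPM in ALAS1/2-KO, against 105, 112 and 94.3 CPM in WT. Its groups overlapped in ALAS1/2-KO replicate 4 and WT replicate 2, and the log2 fold change was 0.26 ± 0.118 (limma adjusted p = 0.231). Sdha, the flavin-carrying catalytic subunit, had 259, 263, 213 and 188 CPM in ALAS1/2-KO, against 178 to 202 CPM in WT, with ALAS1/2-KO replicate 4 inside the WT range (log2 fold change 0.24, limma adjusted p = 0.334). Sdhb, the iron-sulfur subunit, had 88.4, 106, 89.9 and 79.1 CPM in ALAS1/2-KO, against 93.6, 77.4 and 62.1 CPM in WT, and WT replicate 1 exceeded 3 of the 4 ALAS1/2-KO libraries (0.24, limma adjusted p = 0.396). Sdhc, the other membrane anchor of the heme, differed least, at 63.5 ± 8.07 CPM in ALAS1/2-KO and 66.5 ± 11.0 CPM in WT (log2 fold change -0.06, limma adjusted p = 0.837).

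Complex III, the cytochrome bc1 complex, held the subunit with the smallest p of all 79. Uqcrc2, a core protein on the matrix side (ENSMUSG00000030884.12, chromosome 7, 120635176 to 120659524), had 138, 134, 111 and 105 CPM in ALAS1/2-KO, against 95.9, 94.2 and 92.5 CPM in WT. Every ALAS1/2-KO library lay above the WT libraries, and the WT libraries lay close together. The log2 fold change was 0.36 ± 0.12, with a 95% interval of 0.09 to 0.64, and it did not pass (limma adjusted p = 0.122). Uqcrc1, the partner core protein, averaged 106 ± 16.6 CPM in ALAS1/2-KO and 86.9 ± 13.8 CPM in WT (log2 fold change 0.29, limma adjusted p = 0.307).

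Among the small subunits, Uqcrq had 101, 109, 91.4 and 85.0 CPM in ALAS1/2-KO, against 129, 139 and 84.5 CPM in WT (log2 fold change -0.26, limma adjusted p = 0.422). WT replicate 3 lay below every ALAS1/2-KO library while the other WT libraries lay above them all. Uqcrfs1, the Rieske iron-sulfur protein, averaged 95.8 ± 11.6 CPM in ALAS1/2-KO and 91.6 ± 19.5 CPM in WT, a log2 fold change of 0.08. Cyc1, the heme-carrying cytochrome c1 of the same complex, lies outside the symbol rule. It had 113, 111, 116 and 117 CPM in ALAS1/2-KO, against 124, 104 and 84.1 CPM in WT, and its log2 fold change of 0.16 did not pass (limma adjusted p = 0.515). Uqcrh, the hinge protein beside cytochrome c1, averaged 90.1 CPM in ALAS1/2-KO and 90.2 CPM in WT. The complex as a whole had a median of 0.05 and a summed level of 689 ± 87.5 CPM in ALAS1/2-KO and 657 ± 85.9 CPM in WT.

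Complex IV, cytochrome c oxidase, carries its hemes in a subunit encoded by mitochondrial DNA, and its nuclear subunits surround that core. Their log2 fold changes had the narrowest range of the 5 complexes, from -0.13 for Cox7a2 to 0.17 for Cox7a2l, with a median of 0.02 and none called. Their summed level was 1032 ± 110 CPM in ALAS1/2-KO and 1020 ± 111 CPM in WT. Cox7a2l, known for its role in joining complexes III and IV into supercomplexes, had 49.0, 52.3, 45.3 and 45.0 CPM in ALAS1/2-KO, against 46.9, 39.4 and 41.6 CPM in WT (log2 fold change 0.17, limma adjusted p = 0.353). WT replicate 1 lay within the ALAS1/2-KO range. Cox6c averaged 91.2 CPM in ALAS1/2-KO and 81.9 CPM in WT (0.16), and Cox5a, a matrix-facing subunit, 77.8 CPM in ALAS1/2-KO and 84.1 CPM in WT (-0.10).

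Several complex IV subunits exist as tissue forms. Of 18 paralogues looked for, 11 were listed, and the other 7 (Cox4i2, Cox6a2, Cox6b2, Cox7a1, Cox7b2, Cox8b and, for Ndufa4, Ndufa4l2) were not analysed here. The listed forms were those typical of liver: Cox4i1 averaged 189 ± 9.21 CPM in ALAS1/2-KO and 201 ± 25.5 CPM in WT, and Cox6a1 144 ± 16.9 CPM in ALAS1/2-KO and 145 ± 14.8 CPM in WT. Cox6b1, Cox7b and Cox8a had log2 fold changes of -0.00, 0.07 and 0.09. Cox6c2, which the symbol rule includes, is a processed pseudogene in the GENCODE M21 annotation, at 2.45 CPM in ALAS1/2-KO and 2.61 CPM in WT, and it may share reads with Cox6c.

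In complex V, the ATP synthase, none of the 17 subunits was called. Its median log2 fold change was -0.01, with 8 subunits above and 9 below 0, and its summed level was 2150 ± 250 CPM in ALAS1/2-KO and 1932 ± 239 CPM in WT. Atp5c1, the gamma shaft of the F1 head (ENSMUSG00000025781.14, chromosome 2, 10056016 to 10080510), had 150.4, 164, 122 and 115 CPM in ALAS1/2-KO, against 115, 108 and 99.6 CPM in WT (log2 fold change 0.34 ± 0.143, limma adjusted p = 0.192). Atp5a1, the alpha subunit of the head, had 462, 497, 407 and 365 CPM in ALAS1/2-KO, against 389, 342 and 301 CPM in WT (0.33 ± 0.142, limma adjusted p = 0.205). Atp5b, the catalytic beta subunit, had 606, 622, 535 and 490.2 CPM in ALAS1/2-KO, against 538, 444 and 416 CPM in WT (0.27 ± 0.134, limma adjusted p = 0.254). In all 3 genes ALAS1/2-KO replicates 1 and 2 lay above every WT library and replicate 4 lay below WT replicate 1. Atp5e, the small epsilon subunit of the same head (ENSMUSG00000016252.7, chromosome 2, 174461072 to 174464105), had 28.3, 34.8, 29.0 and 26.9 CPM in ALAS1/2-KO, against 43.5, 38.9 and 27.5 CPM in WT. WT replicate 3 lay inside the ALAS1/2-KO range, and the log2 fold change was -0.28 ± 0.166 (limma adjusted p = 0.346).

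The c ring of the ATP synthase is built from 1 mature protein encoded by 3 genes, Atp5g1, Atp5g2 and Atp5g3. Their log2 fold changes were -0.01, -0.12 and 0.02. Per kilobase of transcript, Atp5g3 supplied 58.7% of their summed CPM in ALAS1/2-KO and 57.4% in WT, Atp5g1 24.5% in each group, and Atp5g2 16.7% in ALAS1/2-KO and 18.05% in WT. The 9 other subunits of complex V, in the stalks and membrane part, had a median of -0.03.

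**Figure D2:**
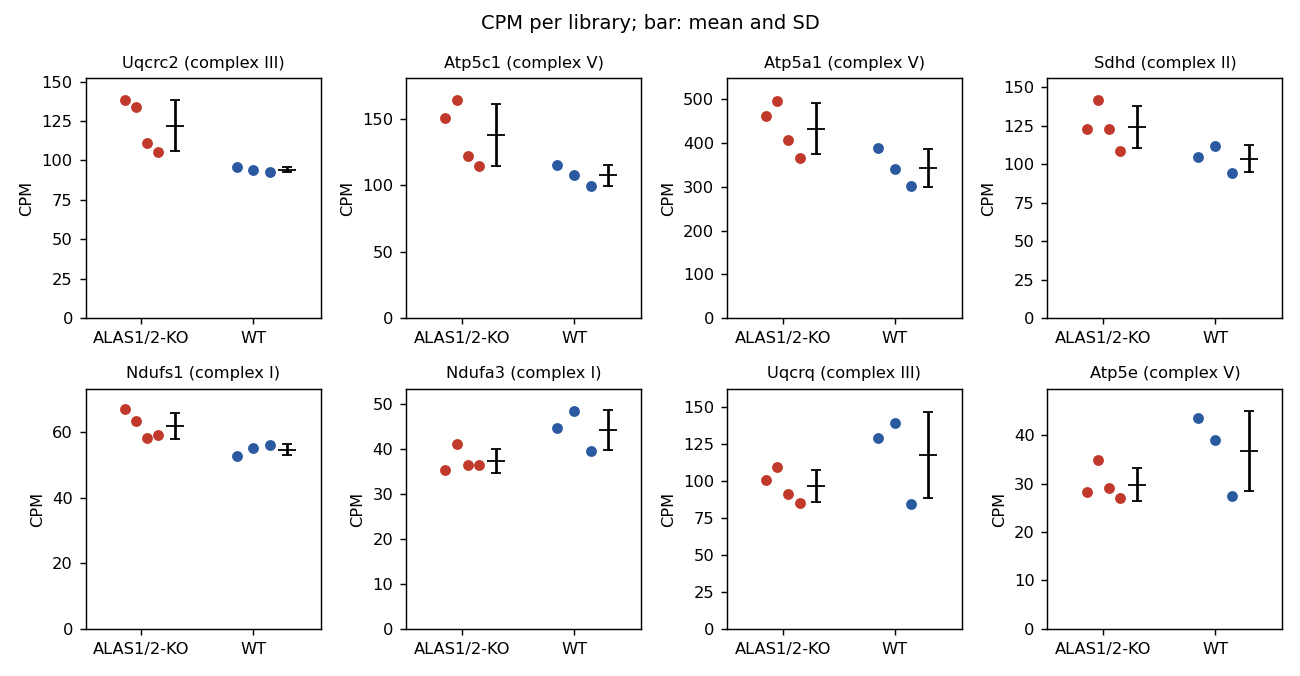
CPM in each library for 8 named members, ALAS1/2-KO to the left of WT, each point 1 library and the bars beside them the mean and SD of the group. Only for Uqcrc2 and Ndufs1, of the 8 shown, do the groups not overlap.

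Subunits listed as iron-sulfur or heme proteins were also described as a group. These 11, among them Ndufs1, Ndufv1, Sdhb, Sdhd and Uqcrfs1, had a median log2 fold change of 0.07, with 8 above 0, and none was called. Not every member of the list holds a cluster: Ndufs3, for example, is in it for its name as an iron-sulfur protein and carries none in the mammalian enzyme. The 68 other members had a median of -0.00, with 33 above 0.

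Levels per kilobase of transcript differed more between subunits than between groups. Atp5b was highest in ALAS1/2-KO at 294 CPM per kb, against 243 in WT. Uqcrq had 239 CPM per kb in ALAS1/2-KO and 291 in WT. Cox4i1 had 254 CPM per kb in ALAS1/2-KO and 270.0 in WT, and Cox6a1 had 253 in each group. Ndufa4 had 238 CPM per kb in ALAS1/2-KO and 256 in WT. Ndufa4 was first assigned to complex I and is now regarded as a subunit of complex IV. At the low end, Ndufb2 had 8.08 CPM per kb in ALAS1/2-KO and 9.15 in WT.

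The subunits varied together from library to library within each group. The median log2 level of the 79 subunits, relative to each gene's WT mean, was 0.05, 0.17, -0.04 and -0.13 in ALAS1/2-KO replicates 1 to 4 and 0.11, 0.12 and -0.19 in WT replicates 1 to 3. The same median over all genes tested lay between -0.01 and 0.01 in every library. ALAS1/2-KO replicate 2 was the highest of its group for 67 of 79 subunits, against 27.9% of all genes tested, and replicate 4 the lowest for 52, against 23.5%. WT replicate 3 was the lowest of its group for 73 of 79, against 36.3% of all genes. The spread between libraries of a group was thus larger than the difference of 0.01 between the groups. Because the members share this movement, they do not act as 79 separate readings of the comparison.

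**Figure D3:**
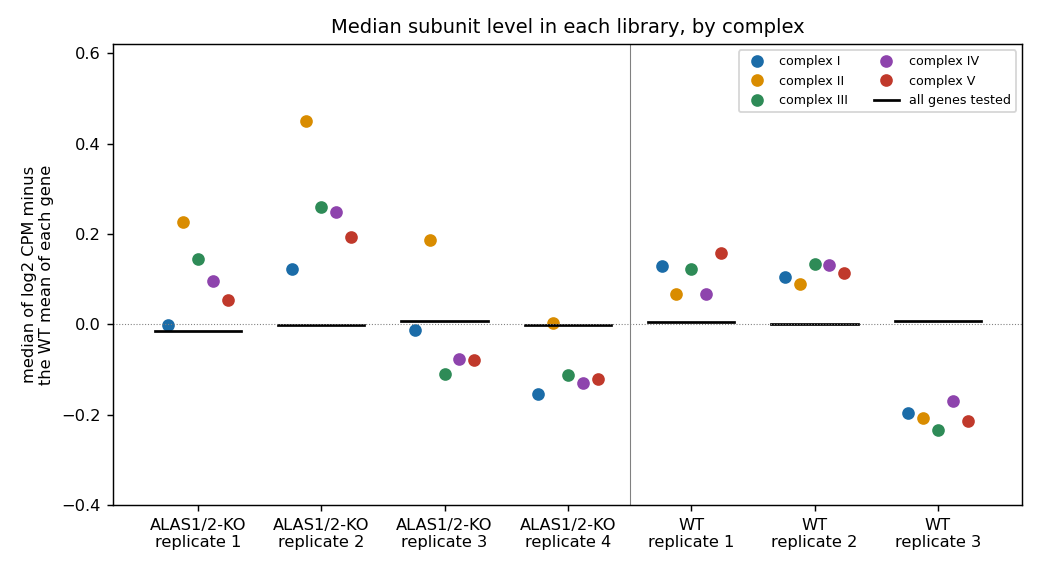
Median log2 level of the subunits of each complex in each library, relative to the WT mean of each gene, ALAS1/2-KO to the left of WT, with a black line for all genes tested. WT replicate 3 and ALAS1/2-KO replicate 4 are lowest in their groups over the 79 subunits, at -0.19 and -0.13.

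Fold change was related to transcript length. The members have short transcripts, with a median of 758 nucleotides (231 to 3171), beside 2774 for all genes matched. Across the 79 members the log2 fold change and log2 length had a Pearson r of 0.52 and a Spearman rho of 0.49, given as a description, since members share libraries and are not independent. Across 11899 tested genes with a length the same values were 0.11 and 0.16. Leaving out each library in turn left the members' r between 0.467 and 0.561. The 40 members with shorter transcripts had a median log2 fold change of -0.07, with 13 above 0, and the 39 with longer transcripts a median of 0.08, with 28 above 0.

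Within complexes of 8 or more members, Pearson r was 0.42 in complex I, 0.86 in complex III, 0.38 in complex IV (Spearman rho 0.18) and 0.78 in complex V, where the head proteins are long and epsilon is short. Medians of all genes tested, members included, are given beside those of the members by length. The 35 members under 700 nucleotides had a median of -0.08, beside -0.15 for all genes of that length, and the 28 members of 700 to 1400 nucleotides 0.04, beside -0.13. The 13 members of 1400 to 2500 nucleotides had a median of 0.12, beside -0.04. Whether RNA quality or fragment selection took part was not tested.

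**Figure D4:**
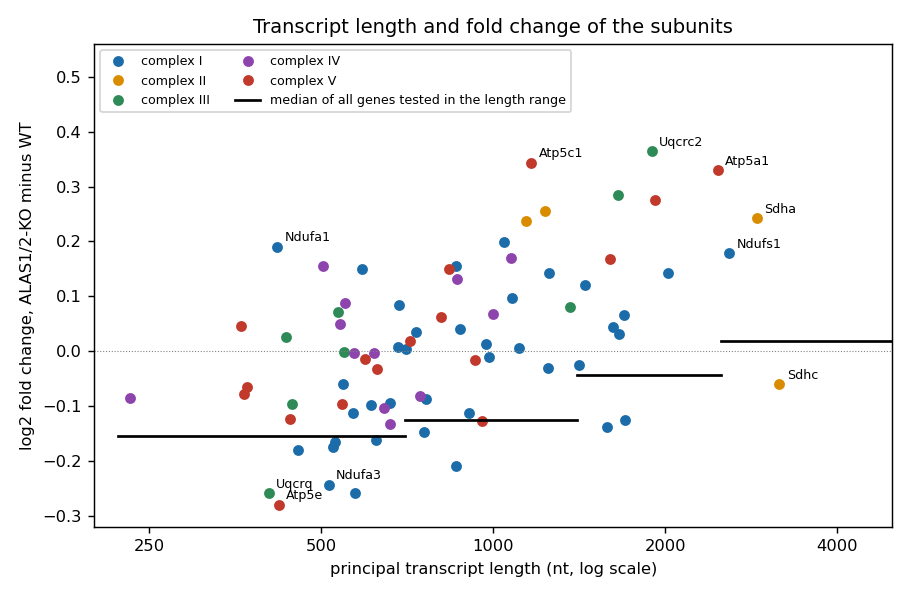
Log2 fold change, ALAS1/2-KO minus WT, of each subunit against the length of its transcript in nucleotides on a log axis, coloured by complex, with black lines for the median of all genes tested in each range of lengths. Members under 700 nucleotides have a median of -0.08 and those of 1400 to 2500 nucleotides a median of 0.12.

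The promoters of the members were searched for the letters of 4 factors known to act on respiratory genes. The window ran from 250 bases before to 50 bases after the start (RefSeq, GRCm38.p6), both strands were read, and 66 of the 79 members had an entry. NRF1 was searched as GCGCA, any base and GCGC, GABP as CCGGAAG, YY1 as AAGATGGC and ERR, the site of the estrogen-related receptors, as AAGGTCA. In no member promoter did matches to 2 of these share letters. The NRF1 letters stood in 25.8% of members, beside 11.7% of the 9410 tested genes with an entry, and the GABP letters in 25.8%, beside 20.4%. The YY1 letters stood in 15.2%, beside 5.40%, and the ERR letters in 12.1%, beside 4.17%. The 17 members with the NRF1 letters had a median log2 fold change of 0.02 and those without -0.00. For GABP the median was -0.00 in the 17 members with the letters and 0.02 in those without. For YY1 it was -0.07 in 10 members with the letters and 0.02 in those without. For ERR it was -0.08 in 8 members with the letters and 0.02 in those without. A match is a description of the letters and does not show binding.

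Sdha, Sdhd and Atp5e are shown, the first pair from the complex with the highest median and the last as the member with the lowest log2 fold change. Each is written 5′ to 3′ on the minus strand, with matches in capitals. The Sdha window (chr13:74350191-74350490) holds 3 NRF1 matches, the Sdhd window (chr9:50603800-50604099) 1 match each for NRF1, GABP and ERR, and the Atp5e window (chr2:174464052-174464351) 1 each for GABP and ERR.
Sdha: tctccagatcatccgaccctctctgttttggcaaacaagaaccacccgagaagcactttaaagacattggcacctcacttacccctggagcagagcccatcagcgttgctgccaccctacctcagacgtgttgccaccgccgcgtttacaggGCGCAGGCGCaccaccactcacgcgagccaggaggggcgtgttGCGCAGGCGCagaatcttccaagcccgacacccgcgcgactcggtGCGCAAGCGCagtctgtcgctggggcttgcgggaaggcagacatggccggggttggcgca
Sdhd: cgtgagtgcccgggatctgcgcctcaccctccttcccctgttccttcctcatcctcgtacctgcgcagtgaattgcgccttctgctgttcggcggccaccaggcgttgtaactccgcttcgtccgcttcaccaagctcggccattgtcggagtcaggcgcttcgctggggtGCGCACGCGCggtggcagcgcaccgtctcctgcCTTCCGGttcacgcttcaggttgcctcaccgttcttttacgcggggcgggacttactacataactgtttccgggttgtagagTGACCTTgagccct
Atp5e: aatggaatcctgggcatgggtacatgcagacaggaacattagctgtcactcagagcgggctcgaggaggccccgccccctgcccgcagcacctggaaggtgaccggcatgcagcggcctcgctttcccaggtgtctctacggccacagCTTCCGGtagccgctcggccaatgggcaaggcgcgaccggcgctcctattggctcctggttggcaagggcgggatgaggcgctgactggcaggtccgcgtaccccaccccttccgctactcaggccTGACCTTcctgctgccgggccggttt

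The factors that act on such promoters gave 2 calls among the 9 tested regulators of mitochondrial biogenesis, both higher, beside 2.91% of all genes. Ppargc1b, a coactivator of the estrogen-related receptors, had 6.08, 8.22, 8.31 and 9.30 CPM in ALAS1/2-KO, against 4.12, 2.42 and 3.13 CPM in WT, and rose by 1.30 ± 0.22 on the log2 scale (limma adjusted p = 0.0197). Esrra, the receptor ERR alpha, had 21.6, 23.1, 25.1 and 19.9 CPM in ALAS1/2-KO, against 17.0, 14.6 and 13.7 CPM in WT, and rose by 0.57 ± 0.118 (limma adjusted p = 0.0342). The groups did not overlap for either gene. With each library left out in turn, Ppargc1b passed in 4 of 7 fits, with adjusted p of 0.0547 without ALAS1/2-KO replicate 4, 0.099 without WT replicate 2 and 0.0562 without WT replicate 3. Esrra passed without ALAS1/2-KO replicate 1 only (adjusted p = 0.0358), and its adjusted p was 0.0533 to 0.159 without each of the other 6 libraries. Ppargc1a, the related coactivator, averaged 4.45 CPM in ALAS1/2-KO and 3.99 CPM in WT, Nrf1 7.07 CPM in ALAS1/2-KO and 7.44 CPM in WT, and Gabpa 25.0 CPM in ALAS1/2-KO and 23.4 CPM in WT. None of these 3, which were chosen after their values were seen, was called. Of the 9 regulators, 3 had a negative log2 fold change, and 4 had an unadjusted p under 0.05, beside 23.7% of all genes. These 4 were the 2 called genes, Pprc1 at 0.56 (limma adjusted p = 0.198) and, in the other direction, Tfam at -0.29 (limma adjusted p = 0.184).

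The subunits encoded by mitochondrial DNA contrasted with the nuclear ones. All 13 had a negative log2 fold change, with a median of -1.18. Of these, 5 were called lower (mt-Nd2, mt-Nd3, mt-Nd4l, mt-Co3 and mt-Atp6), beside 2.19% of all genes. Among the 5, mt-Nd2 averaged 30579 CPM in ALAS1/2-KO and 65590 CPM in WT. The others were far lower: mt-Nd3 averaged 3.02 CPM in ALAS1/2-KO and 6.91 CPM in WT, and mt-Nd4l 2.96 and 10.5 CPM. In the same order, mt-Atp6 averaged 32.7 and 232 CPM, and mt-Co3 76.8 and 458 CPM. Each of these 5 passed in 1 to 3 of the 7 fits that left out a library, none passed without WT replicate 2 (adjusted p of 0.137 to 0.186) or without ALAS1/2-KO replicate 4 (0.072 to 0.091), and mt-Nd4l did not pass with voom (adjusted p = 0.0786). In complex I, the mitochondrial subunits had 55.2 ± 14.4 times the summed CPM of the nuclear ones in ALAS1/2-KO and 110.5 ± 14.4 times in WT. In complex III, where the mitochondrial member is cytochrome b, the ratio was 57.8 ± 18.5 in ALAS1/2-KO and 124 ± 23.6 in WT. In complex IV it was 77.7 ± 20.9 in ALAS1/2-KO and 148 ± 26.0 in WT. There mt-Co1 averaged 79012 CPM of a mitochondrial sum of 79198 CPM in ALAS1/2-KO, and 152505 of 153300 CPM in WT. The complex IV ratio is thus close to that of mt-Co1 alone. In all 3 complexes every ALAS1/2-KO library lay below every WT library. The ratio does not depend on the library scaling, and no test was run on it. Reads that also match mitochondrial copies within nuclear chromosomes may be divided or dropped. Because of this, and because mt-Atp6 and mt-Atp8 overlap, the ratio for complex V is not given. Whether such loss of reads also lowered mt-Nd3, mt-Nd4l, mt-Co2 and mt-Co3 was not tested.

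**Figure D5:**
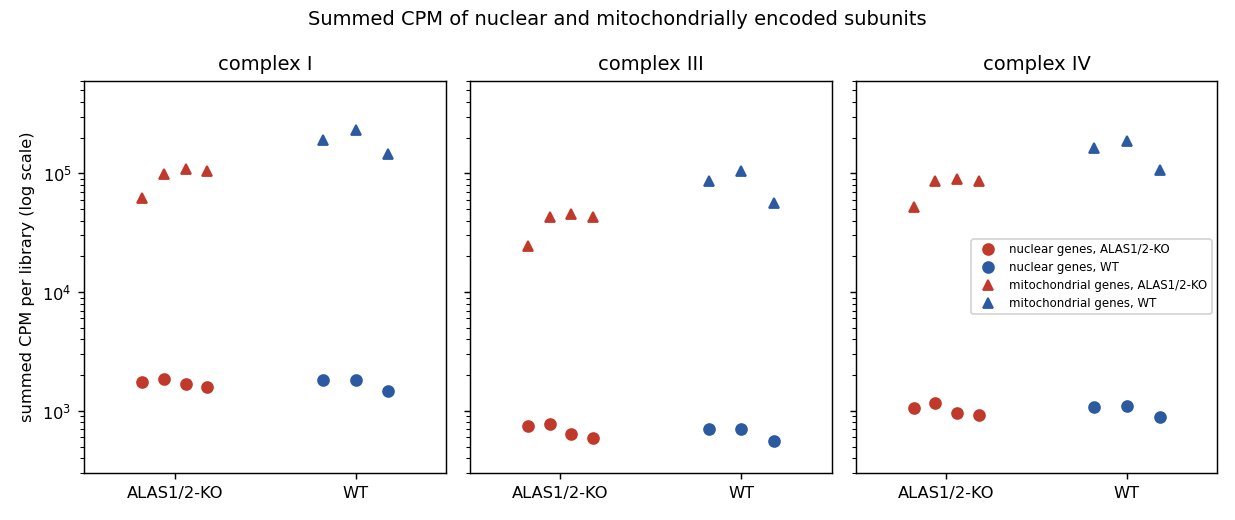
Summed CPM of mitochondrially encoded subunits (triangles) and nuclear subunits (circles) in each library for complexes I, III and IV, on a log axis, ALAS1/2-KO to the left of WT. The triangles of every ALAS1/2-KO library lie below those of every WT library, while the circles of the groups overlap.

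Proteins that build the complexes or feed them were counted from lists of their own. Of 48 tested assembly factors, 1 was called higher and 1 lower, with a median of 0.07, a count near the share of all genes called (2.91% higher and 2.19% lower). Uqcc1, needed for making cytochrome b, averaged 22.7 ± 0.82 CPM in ALAS1/2-KO and 17.0 ± 1.00 CPM in WT and rose by 0.42 (limma adjusted p = 0.0353). Sco2, a copper chaperone of complex IV, averaged 4.33 ± 0.351 CPM in ALAS1/2-KO and 6.59 ± 0.305 CPM in WT and fell by 0.60 (limma adjusted p = 0.0442). Neither passed in any of the 7 fits that left out a library, with adjusted p of 0.0569 to 0.171 for Uqcc1 and 0.0588 to 0.177 for Sco2. With CPM rescaled to listed reads, Sco2 was not called, at -0.27 (adjusted p = 0.284). Cox10 and Cox15, which turn heme into the heme A of complex IV and were picked after their values were seen, averaged 7.55 and 16.2 CPM in ALAS1/2-KO, against 6.15 and 12.6 CPM in WT, and were not called (limma adjusted p = 0.207 and 0.140).

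Of 13 electron carriers and entry enzymes, 1 was called lower and 0 higher, beside 2.19% of all genes called lower. It was Atpif1, an inhibitor of ATP hydrolysis by complex V, at 11.6, 12.2, 11.8 and 11.2 CPM in ALAS1/2-KO, against 16.6, 16.0 and 15.6 CPM in WT. It fell by 0.46 ± 0.0907 (limma adjusted p = 0.0304) and passed without ALAS1/2-KO replicate 1 (0.0437) or 2 (0.0477), but not without each of the other 5 libraries (0.0612 to 0.137). With CPM rescaled to listed reads, Atpif1 was not called, at -0.12 (adjusted p = 0.495). Cycs, cytochrome c, averaged 30.6 CPM in ALAS1/2-KO and 32.2 CPM in WT and was not called. Of 13 coenzyme Q genes, limma called 0 and voom 0, with 2 at an unadjusted p under 0.05, beside 23.7% of all genes.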

How the data were processed

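Hepatocyte mRNA of 4 ALAS1/2-KO and 3 WT libraries was sequenced. Per the labels' protocols, RNA was extracted with Trizol and 1 µg of total RNA entered a TruSeq (version 2) RNA library. Per the submitters' processing notes, cutadapt, HISAT2 and build mm10 were used. No source used here names the read counter, annotation, strand setting or scaling method. The authors deposited log2 CPM values with a small prior. Taking off a floor of 0.0676 CPM left whole multiples of 1 read for 100% of values, within 0.01 reads, and gave the reads per gene. The listed genes all reach 0.5 CPM in 3 libraries or more, and other genes were not analysed here.

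The deposited log2 values of the 12105 genes that reached 1 CPM in 3 or more libraries were compared with limma 3.58.1 in R 4.3.3, with trend and robust moderation, two-sided, with Benjamini-Hochberg adjustment. Fold changes are ALAS1/2-KO over WT. The procedure was tested on simulated data. Symbols were matched to GENCODE M21: 75 members by symbol and 4 through RefSeq synonyms or position. Among the latter, Ndufb1 was matched to an entry named Ndufb1-ps and typed there as a bidirectional promoter long noncoding RNA. Its length of 861 nucleotides is that of this entry. Transcript length is that of the principal transcript.

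Members and lists were chosen with earlier results of these data known. Some items the rule takes are not reported here. Genes named are, per complex, those with the smallest p, the largest increase or decrease and the highest CPM per kb, with paralogues, iron-sulfur or heme subunits and called members of the other lists. The 20 alternatives were other pseudocounts, filters, scalings, limma settings and voom, a replicate block, and each library left out.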

Additional observations from a re-analysis of the deposited data

Results flagged for a closer look

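The level of Ndufa3, an accessory subunit of complex I, stood apart in 1 library. ALAS1/2-KO replicate 2 had 41.2 CPM, while the nearest of the others had 36.4 CPM and the lowest 35.5 CPM. The gap was 0.835 of the range of the group, above the 95% critical value of Dixon's test for 4 samples. It was the only such value among 55 groups of libraries examined, and chance alone gives about 1 in 20. That replicate was the highest of its group for 67 of the 79 subunits.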

How the results depend on the processing

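With CPM rescaled to listed reads, 24 subunits were called higher (11, 3, 2, 3 and 5 in complexes I to V), beside 20.9% of all genes tested. The median log2 fold change was then 0.34 over all members and 0.33, 0.58, 0.38, 0.36 and 0.32 in complexes I to V. With array weights 1 subunit, Ndufa3, was called lower (adjusted p = 0.0403) and the member median was -0.10. That setting called 2001 of all 12105 genes tested in either direction, 1030 of them higher. The other 18 alternatives called 0 members. Across 20 alternatives and 39 members of the naming rule, 740 of 780 values kept their side of the threshold and stayed within the spread. The rest were 25 values that moved, all 25 under rescaling, and 15 newly called, 14 of these under rescaling to listed reads. Of the 39 members, 26 changed sign in an alternative without being called. Leaving out each library in turn put the member median between -0.07 and 0.07, and the median of complex I between -0.10 and 0.04, II between 0.14 and 0.31, III between -0.08 and 0.10, IV between -0.05 and 0.09 and V between -0.15 and 0.08.

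The count of all genes called, 617, was 802, 378, 335 and 211 without ALAS1/2-KO replicates 1 to 4 and 212, 56 and 276 without WT replicates 1 to 3, 306 without trend, 2001 with array weights and 2732 rescaled. The replicate block, on replicates 1 to 3 of each group, gave 0 members called, a member median of 0.06 and 86 genes called. Deviations of same-numbered libraries correlated at -0.03, 0.05 and 0.18, and those of differently numbered libraries at -0.33 to 0.36. With so few libraries, these values cannot show whether the numbers pair the libraries, and the labels do not say. The called genes named from the mitochondrial, regulator, assembly and carrier lists had adjusted p of 0.0819 to 0.179 with the block. Members at low CPM had larger standard errors, 0.221 for Cox6c2 and 0.215 for Ndufb2, beside a median of 0.128.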
